A study of Mus musculus with 6 samples.

Results

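The third complementarity-determining region of the T cell receptor (TCR) β chain (CDR3β) was examined in 3 single-cell TCR libraries from Aire GW/+ Lyn-/- mice. Every distinct CDR3β nucleotide sequence of a productive TRB contig, that is an assembled β chain transcript with an open reading frame, was taken within each library. The libraries held 3124 contigs of any kind and, summed over libraries, 1449 distinct productive CDR3 sequences of any chain. Of these, 692 were CDR3β sequences, 124 in uveitis dataset 1, 139 in uveitis dataset 2 and 429 in the dataset without uveitis. Only 1 sequence was found in more than 1 library, so that 691 were distinct over all libraries together.

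All mice carried the GW allele of Aire, the transcriptional regulator that drives tissue antigens in thymic epithelium, on 1 chromosome and lacked Lyn, a Src-family kinase that restrains myeloid and B cells. They were 9 wk old, and the groups differed in the presence of spontaneous uveitis, an inflammation of the eye. CD4+ T cells that bound P2/I-Ab, a tetramer of the class II molecule I-Ab with a peptide of the retinal antigen IRBP, were enriched and sorted from lymph nodes pooled over 7 or 8 mice for each uveitis dataset and over 16 mice for the dataset without uveitis. The group without uveitis is thus 1 library, no test between the conditions was possible, and mice with intact Aire and Lyn are not represented. The matching mRNA libraries were not analysed here, so that the CD4+ T cell label was not checked against marker genes.

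CDR3β spans the join of a V, a D and a J gene segment, runs from a conserved cysteine of the V segment to a conserved phenylalanine of the J segment, and is the most variable loop of the receptor. Its middle lies over the peptide held by the MHC molecule. Hydrophobic residues at positions 6 and 7 of CDR3β, counted from the conserved cysteine as position 1, and a cysteine within the loop are known from other work as features that are more frequent in self-reactive receptors. Glycine makes the loop flexible, and the D segments are rich in it. Hydrophobic residues were here C, F, I, L, M, V, W and Y. Net charge was the number of K and R minus the number of D and E.

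The libraries held 201, 359 and 497 cell barcodes with a productive TRB, and 11, 32 and 19 of these had 2 or more TRB sequences. A cell that held a pair of sequences counted once for each, which gave 212, 391 and 516 cells below. The median number of unique molecular identifiers (UMIs) behind a TRB contig was 11, 10 and 15, with a range from 1 to 114 over the libraries. Uveitis dataset 2 and the dataset without uveitis had 1 barcode string in common, and the other pairs of libraries had 0. Exact binomial intervals (Clopper-Pearson, 95%) follow the shares and cover counting error only. They leave out the differences between mice, which were pooled. Intervals over cells also treat cells with the same sequence as independent draws, so that they are too narrow.

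The sequences that the results below turn on are given 5′ to 3′, in lower case, with the codons of positions 6 and 7 in capitals. The first set holds a sequence of each length class that was in the most cells over the 3 libraries, the first of them in as many as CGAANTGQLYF of uveitis dataset 2. It shows how the span between the fixed ends grows from 11 to 18 residues.
TRBV20 with TRBJ2-5, 11 residues, without uveitis, 4 cells: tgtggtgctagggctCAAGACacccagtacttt
TRBV4 with TRBJ2-7, 13 residues, uveitis dataset 2, 19 cells: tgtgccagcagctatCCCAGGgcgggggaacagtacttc
TRBV31 with TRBJ1-3, 14 residues, uveitis dataset 2, 46 cells: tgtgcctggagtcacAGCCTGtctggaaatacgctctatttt
TRBV19 with TRBJ1-3, 15 residues, uveitis dataset 2, 19 cells: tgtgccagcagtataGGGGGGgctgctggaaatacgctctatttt
TRBV12-2 with TRBJ2-3, 18 residues, uveitis dataset 2, 40 cells: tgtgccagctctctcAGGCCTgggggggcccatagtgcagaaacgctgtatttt

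The second set is a group of near-identical CDR3β, in which each member differed from another at 1 residue. It is shown because it had the most nucleotide sequences of the groups, 6, and no cell without uveitis. All 4 amino acid sequences ended in NQDTQYF, the germline end of TRBJ2-5. The group held 15 cells, 6 in uveitis dataset 1, 9 in uveitis dataset 2 and 0 of 516 without uveitis.
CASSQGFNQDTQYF, TRBV5, 4 cells in uveitis dataset 1 and 2 cells in uveitis dataset 2: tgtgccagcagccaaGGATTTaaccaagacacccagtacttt
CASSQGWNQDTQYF, TRBV5, 2 cells in uveitis dataset 1: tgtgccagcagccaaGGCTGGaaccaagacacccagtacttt
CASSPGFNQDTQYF, TRBV26, 3 cells in uveitis dataset 2: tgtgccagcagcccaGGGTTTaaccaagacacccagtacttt
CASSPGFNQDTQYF, TRBV26, 2 cells in uveitis dataset 2: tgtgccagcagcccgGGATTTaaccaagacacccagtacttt
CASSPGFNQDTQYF, TRBV26, 1 cell in uveitis dataset 2: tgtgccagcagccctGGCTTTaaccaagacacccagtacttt
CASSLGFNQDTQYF, TRBV26, 1 cell in uveitis dataset 2: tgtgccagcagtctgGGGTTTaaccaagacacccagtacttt

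CDR3β was most often 14 residues long. This length took 30.6% of the distinct sequences in uveitis dataset 1 (38 of 124), 31.7% in uveitis dataset 2 (44 of 139) and 28.7% without uveitis (123 of 429). Lengths of 13 to 15 residues were the 3 most frequent ones in each library, and the whole range was 9 to 19 residues. The mean length was 14.06 ± 1.47 residues (SD over sequences) in uveitis dataset 1, 13.86 ± 1.58 in uveitis dataset 2 and 13.77 ± 1.49 without uveitis. The uveitis mean was 0.192 residues above the dataset without uveitis, and the uveitis datasets themselves differed by 0.201 residues. Among sequences found in 1 cell the uveitis mean was 0.0286 residues higher.

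Sequences of 16 or more residues made up 16.1% of uveitis dataset 1 (20 sequences, interval 10.1 to 23.8%), 12.9% of uveitis dataset 2 (18, interval 7.86 to 19.7%) and 9.32% of the dataset without uveitis (40, interval 6.74 to 12.5%). The uveitis mean of 14.5% ± 2.25 (SD, n = 2) lay 5.22 points above the dataset without uveitis, against a gap of 3.18 points between the uveitis datasets. Sequences of 15 residues were fewer with uveitis, 19.4%, 17.3% and 23.3%, a difference of −5.00 points with a gap of 2.09 points. Sequences of 12 or fewer residues made up 9.68%, 17.3% and 18.2%. Here uveitis dataset 2 lay close to the dataset without uveitis and apart from the other uveitis dataset.

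Counted by cell, the difference in length was larger and the short class was low in both uveitis datasets. CDR3β of 12 or fewer residues was in 5.66% of the cells of uveitis dataset 1 (interval 2.96 to 9.68%), 7.16% of those of uveitis dataset 2 (interval 4.81 to 10.2%) and 17.1% without uveitis (interval 13.9 to 20.6%). Cells with the same sequence are not independent, so that these intervals are too narrow. In uveitis dataset 2, 291 of 391 cells were in sequences found in 2 or more cells. CDR3β of 16 or more residues was in 16.5%, 26.6% and 9.88% of cells. Mean length by cell was 14.22, 14.65 and 13.82 residues, a uveitis mean 0.61 residues higher, with a gap of 0.43 residues between the uveitis datasets. The long class of uveitis dataset 2 rested on a pair of sequences, and without them the uveitis mean was 0.287 residues higher. The TRBV12-2 sequence of 18 residues was in 40 cells and a TRBV4 sequence of 17 residues in 31 cells, and 27 cells held both.
TRBV4 with TRBJ2-2, 17 residues, uveitis dataset 2, 31 cells: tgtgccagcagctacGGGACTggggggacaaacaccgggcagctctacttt

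**Figure D1:**
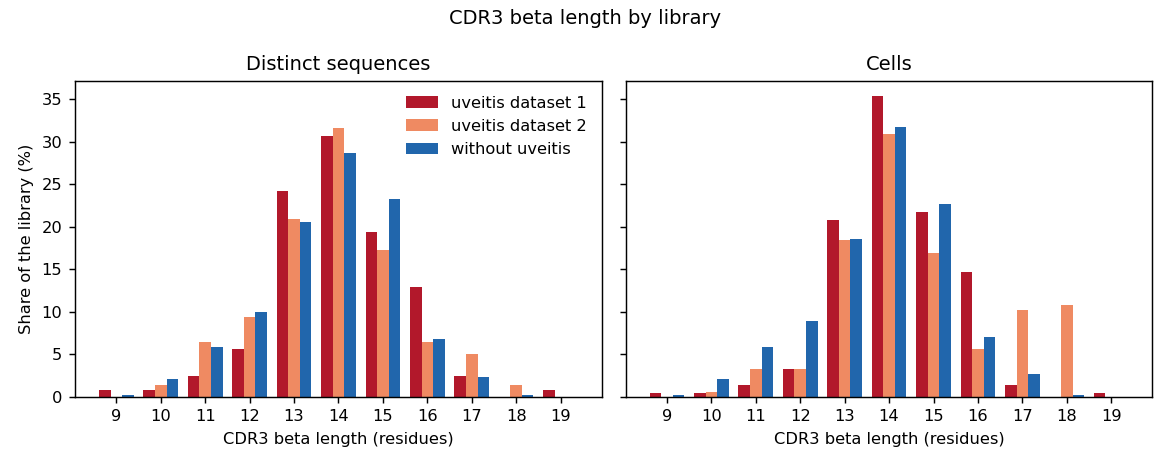
Share of each library (y axis, %) by CDR3β length in residues (x axis), over distinct sequences on the left and over cells on the right, with 1 bar per library. The 3 libraries peak at 14 residues in both panels, and the bars of uveitis dataset 2 at 17 and 18 residues rise to 10.2% and 10.7% only when cells are counted.

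Length followed the bases between the germline segments. Each sequence was split into the bases that match its germline V segment from the conserved cysteine on, the bases that match its germline J segment back from the phenylalanine, and the insert between them, which holds the D segment and the bases added at the joins. On average 13.3 bases came from V, 10.0 from the insert and 18.2 from J, and the libraries were alike, with mean inserts of 10.6, 10.4 and 9.75 bases. The insert rose from 5.63 ± 3.27 bases (SD over 114 sequences) in the class of 12 or fewer residues over 8.67, 9.88 and 11.9 bases to 15.9 ± 5.26 bases (78 sequences) in the class of 16 or more. The V part only went from 12.1 to 13.8 bases between these classes, and the J part from 16.5 to 19.4. Across sequences, which are not replicates, length correlated with the insert at Pearson's r = 0.70, 0.73 and 0.61 in the 3 libraries, and with the V part at 0.05, 0.32 and 0.30. Insert and length share the same bases, so that this is a description of where the length lies. A D segment stretch of at least 6 bases was found in the insert of 62.1%, 66.2% and 62.9% of the sequences. A germline match can extend by chance into added bases, which shortens the insert. In 4 sequences of the longest class that start in another reading frame, described below, the V match was cut short, which lengthens it. Without them the mean insert of that class was 14.9 ± 3.45 bases (74 sequences) and the V part 14.4 bases.

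**Figure D2:**
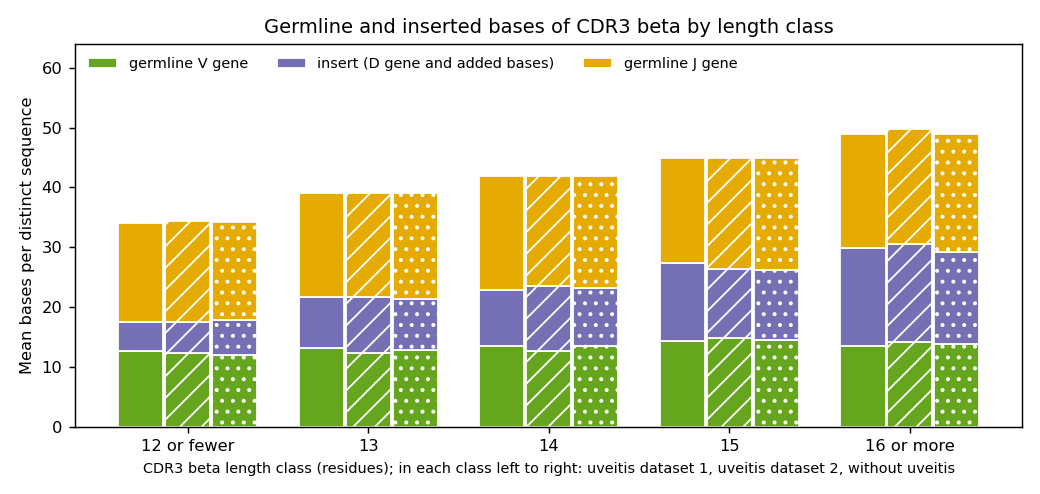
Mean number of bases per distinct sequence (y axis) that match the germline V segment, fall in the insert or match the germline J segment, by length class (x axis) and library (the 3 bars of a class). The middle part grows from 5.63 to 15.9 bases between the first and the last class over all sequences, while the V and J parts change by a few bases.

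Mean length differed between V segments, and the cause was not tested. TRBV20, whose germline part of CDR3β is CGAR in place of the CASS of most segments, had a mean length of 12.76 ± 1.12 residues (SD, 50 sequences) and no sequence above 14. TRBV5 had a mean of 14.75 ± 1.10 residues (52 sequences). TRBV26, whose germline part has as many bases (17) but another sequence, had a mean of 13.49 ± 1.19 (37 sequences). TRBV13-2 had a mean of 14.48 ± 1.58 (86 sequences), which includes the sequences in another reading frame described below. TRBV13-2 (chromosome 6, GRCm38, 41121396 to 41121832 on the plus strand) supplied 21 of the 78 sequences of 16 or more residues, 9 of them in uveitis dataset 1, 2 in uveitis dataset 2 and 10 without uveitis. The J segments spread less, from a mean of 12.95 residues for TRBJ1-1 to 14.60 for TRBJ2-3.

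The deposited CDR3 did not start at the matching cysteine in all chains. TRBV1 (chromosome 6, GRCm38, 40891229 to 40891885, plus strand) has a pair of germline cysteines, and the deposited CDR3 starts at the later one, after the germline residues YCT. Of the 21 V segments found, it was the only one with a cysteine among the 3 residues before the start. The 32 TRBV1 sequences had a mean length of 12.06 ± 1.44 residues, and 18 of them were among the 114 in the shortest class. The shortest CDR3β of all, 9 residues, was found in 2 sequences, one of which was the TRBV1 sequence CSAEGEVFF in 1 cell without uveitis.
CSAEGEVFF, TRBV1 with TRBJ1-1: tgcagtgcagagggaGAAGTCttcttt

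At the other end, 4 sequences of 17 to 19 residues, 2 in uveitis dataset 1 and 2 without uveitis, did not begin at the conserved cysteine of their V segment, TRBV13-2. They began 8 bases before it, in another reading frame, and kept the germline bases up to the join. Each was in 1 cell, with 2 to 9 UMIs, and each of these cells held another productive TRB with more UMIs, 8 to 20. They include the longest CDR3β of the series, and they are 4 of the 21 TRBV13-2 sequences in the longest class. The codon of the conserved cysteine is in capitals here.
TRBV13-2 with TRBJ2-3, 19 residues, uveitis dataset 1, 4 UMIs: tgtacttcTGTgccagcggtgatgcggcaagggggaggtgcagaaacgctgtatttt
TRBV13-2 with TRBJ2-7, 17 residues, without uveitis, 9 UMIs: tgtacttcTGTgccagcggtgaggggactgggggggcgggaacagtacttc

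Hydrophobic residues in the middle of the loop were more frequent in both uveitis datasets than without uveitis when either position was counted. Taking both positions together was a choice added after the data were seen, and the single positions are given below. A hydrophobic residue at position 6, at position 7 or at both was found in 39.5% of the sequences of uveitis dataset 1 (49 of 124, interval 30.9 to 48.7%), 38.1% of uveitis dataset 2 (53 of 139, interval 30.0 to 46.7%) and 27.0% without uveitis (116 of 429, interval 22.9 to 31.5%). The uveitis mean was 38.8% ± 0.98 (SD, n = 2), which lay 11.8 points higher, and the uveitis datasets differed by 1.39 points. The interval of each uveitis dataset overlapped that of the dataset without uveitis. Counted by cell the shares were 34.4%, 37.1% and 29.1%, a difference of 6.69 points with a gap of 2.65 points between the uveitis datasets. Without the pair of long sequences of uveitis dataset 2 it was 10.8 points by cell.

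The uveitis datasets did not share the position. Dataset 1 was high at position 7, with 22.6% (28 of 124), against 14.4% in dataset 2 (20 of 139) and 13.5% without uveitis (58 of 429). Dataset 2 was high at position 6, with 23.7% (33 of 139), against 17.7% in dataset 1 (22 of 124) and 14.5% without uveitis (62 of 429). At position 6 alone the uveitis mean lay 6.29 points above the dataset without uveitis and the gap between the uveitis datasets was 6.0 points. At position 7 alone the difference of 4.96 points was smaller than the gap of 8.19 points. Counted by cell, the shares at position 6 were 17.0%, 18.4% and 17.6%, a difference of 0.062 points, and those at position 7 were 18.4%, 18.7% and 12.2%.

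**Figure D3:**
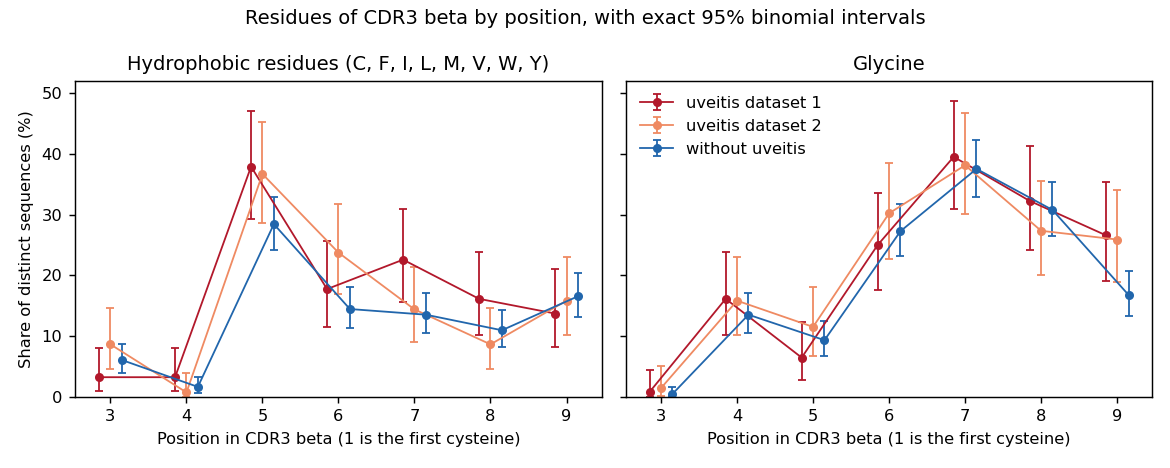
Share of distinct sequences (y axis, %) with a hydrophobic residue (left) or a glycine (right) at positions 3 to 9 of CDR3β (x axis), by library, with exact 95% binomial intervals as bars. Dataset 2 stands highest at position 6 (23.7%) and dataset 1 at position 7 (22.6%) among the hydrophobic shares, and glycine peaks at position 7 in the 3 libraries.

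Leucine and valine were the most frequent hydrophobic residues at position 6, with 36 sequences each among the 692, followed by tryptophan with 28. Leucine stood at position 6 in 9.35% of the sequences of uveitis dataset 2 (13 of 139), 3.23% of uveitis dataset 1 (4 of 124) and 4.43% without uveitis (19 of 429). Valine was at this position in 7.26%, 7.19% and 3.96% of the 3 libraries. At position 7, tryptophan was found in 28 sequences, leucine in 27 and valine in 20. By library, tryptophan was in 4.84%, 1.44% and 4.66%, leucine in 7.26%, 4.32% and 2.80% and valine in 4.84%, 0.719% and 3.03%. Tryptophan and valine were thus lowest in uveitis dataset 2. Phenylalanine was found at position 7 in 3 sequences of uveitis dataset 1, 6 of uveitis dataset 2 and 0 of 429 without uveitis, a count of 0 that allows a share of up to 0.699%. The group of near-identical sequences printed above supplied part of these. Without that group the share at position 6 or 7 was 38.5% in uveitis dataset 1, 35.8% in uveitis dataset 2 and 27.0% without uveitis. At position 7 alone it was 21.3%, 11.2% and 13.5%, so that uveitis dataset 2 then lay below the dataset without uveitis. The group was picked for having no cell without uveitis, and all its members have a hydrophobic residue at position 7. Leaving it out could thus only lower these uveitis shares and not change those without uveitis.

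Few of these residues were encoded wholly by the germline V or J part. Of the 117 hydrophobic residues at position 6, 84 were encoded by a junction codon, 31 by D segment bases, 2 by the J segment and 0 by the V segment. A junction codon is one that does not lie wholly within a V, D or J match. It can hold added bases, the edge of a segment, or D segment bases where the D match was shorter than 6 bases. At position 7 the counts were 54, 44, 8 and 0 of 106. At position 5, where the germline part of several V segments ends in a leucine (CASSL), the hydrophobic share was 37.9%, 36.7% and 28.4%.

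A pair of hydrophobic residues at positions 6 and 7 was rare in each library. It was found in 1, 0 and 4 sequences, 5 of 692 in all. The product of the shares at the single positions, summed over the libraries, comes to 18.1 sequences. This comparison is a description, since both positions lie in the same few inserted codons. The sequence in dataset 1 was in 2 cells, and each of those without uveitis that the naming rule covers was in 1 cell.
TRBV3 with TRBJ2-7, 15 residues, uveitis dataset 1: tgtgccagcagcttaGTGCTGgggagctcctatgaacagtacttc
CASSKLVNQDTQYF, TRBV3, without uveitis: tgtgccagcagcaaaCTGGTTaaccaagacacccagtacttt
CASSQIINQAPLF, TRBV3, without uveitis: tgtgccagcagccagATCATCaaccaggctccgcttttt
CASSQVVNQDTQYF, TRBV2, without uveitis: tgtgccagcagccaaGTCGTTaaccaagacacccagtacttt

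Glycine was the most frequent residue at both positions, with 27.5% of all sequences at position 6 and 38.0% at position 7. It was also more frequent along the whole loop in both uveitis datasets, with 1.73 ± 1.16 and 1.83 ± 1.27 glycines per sequence (SD over sequences), against 1.53 ± 1.08 in the library without it. The mean of both was 1.78 ± 0.07 (SD, n = 2), 0.251 higher, with 0.093 between the uveitis datasets. Sequences with 2 or more glycines made up 56.5% (interval 47.3 to 65.3%), 58.3% (interval 49.6 to 66.6%) and 48.3% (interval 43.4 to 53.1%). Per 100 residues the uveitis mean was 12.8 ± 0.60 glycines and the dataset without uveitis had 11.1.

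At position 9 glycine was in 26.6%, 25.9% and 16.8% of the sequences of the 3 libraries, and at position 7 in 39.5%, 38.1% and 37.5%. At position 8 it was in 32.3%, 27.3% and 30.8%, and at position 6 in 31 of 124, 42 of 139 and 117 of 429, with the dataset without uveitis between the others. D segment bases encoded 0.968 glycines per sequence in uveitis dataset 1, 0.856 in uveitis dataset 2 and 0.751 without uveitis. Over the libraries they encoded 49.9% of all glycines, and junction codons encoded 33.0%. By length class, glycines rose from 1.02 per sequence at 12 or fewer residues to 2.56 at 16 or more over all libraries. The most glycine-rich V segment among those with over 10 sequences was TRBV13-2, with 2.80 per sequence, which has 1 glycine in its germline CASGD.

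CDR3β was negatively charged in each library. The mean net charge was −0.85 ± 0.87 (SD over sequences) in uveitis dataset 1, −0.64 ± 0.88 in uveitis dataset 2 and −0.78 ± 0.99 without uveitis. The dataset without uveitis lay between the uveitis datasets, whose mean was 0.035 higher, with a gap of 0.206 between them. A charge of −1 was the most frequent, in 50.8%, 42.4% and 39.2% of the sequences, and a charge above 0 was found in 6.45%, 7.91% and 8.62%. The J segments carried this charge, with −0.666 per sequence over all libraries. The germline V part, the D segment and the junction codons each had a mean between −0.045 and −0.007. Among J segments it went from −1.17 for TRBJ2-7 to 0.16 for TRBJ1-4, whose germline end SNERLFF holds an arginine and a glutamate.

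The CDR3 of the α chain, from the TRA contigs of the same libraries, had the opposite sign. Its mean net charge was 0.83, 0.79 and 0.73 per distinct sequence (136, 140 and 475 sequences). In cells with both chains, each distinct pair counted once, the sum of the 2 loops was 0.02, 0.19 and −0.02. CDR3β was lower in charge than CDR3α in 3 of 3 libraries, by 1.54 ± 0.13 (SD, n = 3), with p = 0.25 in an exact two-sided permutation test over libraries, the smallest that 3 libraries allow. Across pairs the lengths of both loops were only weakly related (Pearson's r from −0.09 to −0.06), as were their charges (−0.08 to 0.13). At position 6 or 7 the hydrophobic share of CDR3α was 24.3%, 21.4% and 26.7%, with the dataset without uveitis as the highest.

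The extremes of charge were +2, in 5 sequences, and −3, in 21 sequences. The charge of +2 that was in the most cells belonged to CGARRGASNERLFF of TRBV20 and TRBJ1-4, which was in 4 cells without uveitis. The same amino acid sequence was in 3 cells of uveitis dataset 2, with another base in 1 codon.
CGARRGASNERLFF, without uveitis: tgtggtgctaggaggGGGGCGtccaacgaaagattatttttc
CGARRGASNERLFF, uveitis dataset 2: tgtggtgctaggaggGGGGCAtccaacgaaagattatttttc
TRBV13-3 with TRBJ2-7, 16 residues, charge −3, uveitis dataset 1, 2 cells: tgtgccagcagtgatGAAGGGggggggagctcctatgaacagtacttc

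No productive CDR3β had a cysteine after its first position. The count was 0 of 124, 0 of 139 and 0 of 429 sequences. With 3 counts allowed for a count of 0, the share is up to 2.42%, 2.16% and 0.699%, and 0.434% over the 692. The upper limits of the exact intervals, the kind given for CDR3α below, were 2.93%, 2.62%, 0.856% and 0.532%. Among CDR3α sequences a cysteine after the first position was found in 4 of 751, or 0.533% (interval 0.145 to 1.36%), 1, 2 and 1 of them in the 3 libraries. The one in the most cells was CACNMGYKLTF of TRAV7D-3 and TRAJ9, in 4 cells of uveitis dataset 1, with the cysteine at position 3. Counting TRBV1 chains from their earlier germline cysteine puts a cysteine within the loop of each of those 32 sequences, and the uveitis mean minus the dataset without uveitis was then −0.677 points.

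Expanded sequences, found in 2 or more cells, were compared with those found in 1 cell within each library. There were 35 of 124 in uveitis dataset 1 (28.2%), 39 of 139 in uveitis dataset 2 (28.1%) and 36 of 429 without uveitis (8.39%). Expanded sequences were longer in 3 of 3 libraries, by 0.43, 0.80 and 0.10 residues, a mean of 0.44 ± 0.35 (SD, n = 3). In uveitis dataset 2 the means were 14.44 ± 0.26 (SE) for the expanded and 13.64 ± 0.15 for the single sequences. In uveitis dataset 1 they were 14.37 ± 0.19 and 13.94 ± 0.17. Without uveitis they were 13.86 ± 0.26 and 13.76 ± 0.08, a difference smaller than the SE of the expanded sequences. With TRBV1 chains counted from their earlier germline cysteine, the mean difference in length over the libraries was 0.373 ± 0.322 residues (SD). A hydrophobic residue at position 6 was found in 8 of 35, 11 of 39 and 7 of 36 expanded sequences. Among single sequences it was found in 14 of 89, 22 of 100 and 55 of 393. The exact interval of each expanded share contained the single share of that library. The expanded share was higher in 3 of 3 libraries, by 7.13, 6.21 and 5.45 points. The mean difference was 6.26 ± 0.84 points, an SD over libraries that leaves out the counting error. With expansion set at 3 or more cells the mean was 2.76 ± 4.21 points (exact permutation p = 0.50), and at the central residues of the loop it was 6.68 ± 12.9 points (exact permutation p = 0.50). At 2 or more cells, length and position 6 both gave p = 0.25, the smallest the exact permutation test over 3 libraries can give, and 0.75 after Benjamini-Hochberg adjustment over the 6 measures.

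Net charge, the share at position 7 and glycine did not go one way. Net charge was lower in the expanded sequences of uveitis dataset 1 (−0.09) and higher in the other libraries (0.25 with uveitis, 0.36 in the library free of it) (exact permutation p = 0.50, adjusted p = 0.75). At position 6 or 7 the hydrophobic share was higher in 3 of 3 libraries, by 4.65, 7.59 and 0.81 points (exact permutation p = 0.25). At position 7 alone it differed by 0.39, 1.38 and −5.66 points (exact permutation p = 1, adjusted p = 1). Glycines per sequence differed by 0.09, 0.38 and −0.001 (exact permutation p = 0.50, adjusted p = 0.75). The insert was longer in the expanded sequences of both uveitis datasets, by 0.23 and 1.62 bases, and shorter without uveitis, by a difference of −0.76 bases. The germline J part was longer in 3 of 3 libraries, by 0.39, 0.81 and 1.41 bases, a mean of 0.87 ± 0.51 (exact permutation p = 0.25). CDR3β of 12 or fewer residues were fewer among the expanded sequences, with 0% against 13.5%, 5.13% against 22.0% and 16.7% against 18.3% in the 3 libraries (exact permutation p = 0.25). In that length class, TRBV1 sequences (18 of 114) were counted from their deposited start. The median UMIs per contig were higher in expanded sequences on average, by 2.75, 1.82 and 4.36. The part of these UMI differences in the other differences was not tested.

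**Figure D4:**
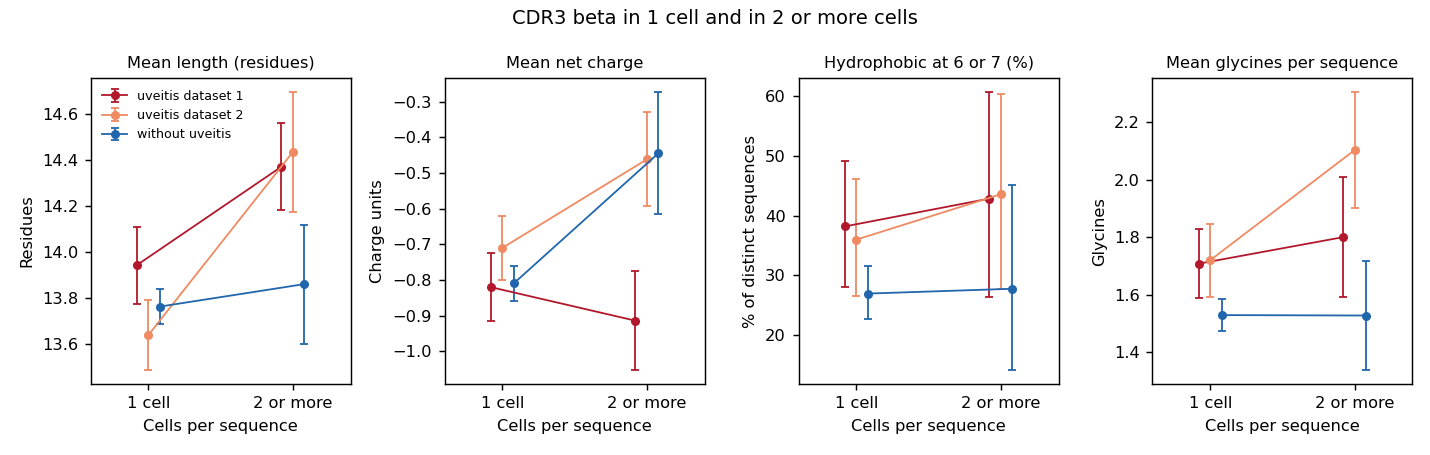
Mean length, mean net charge, share with a hydrophobic residue at position 6 or 7 and mean glycines (y axes) of CDR3β sequences in 1 cell and in 2 or more cells (x axes), 1 line per library. Bars are standard errors over sequences, and exact 95% binomial intervals for the share. Length rises in the 3 libraries by 0.10 to 0.80 residues, and net charge falls in uveitis dataset 1 alone.

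The most expanded sequences were unlike each other in the middle. In uveitis dataset 1 the top sequence, of TRBV3 and TRBJ2-7, was in 16 cells, had 15 residues, and carried alanine and glycine at positions 6 and 7. It was followed by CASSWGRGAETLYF with glycine and arginine (13 cells) and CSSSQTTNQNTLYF with a pair of threonines (11 cells). In uveitis dataset 2, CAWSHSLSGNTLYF (46 cells, 11.8% of cells, interval 8.74 to 15.4%) carried serine and leucine, and the TRBV12-2 and TRBV4 sequences carried arginine with proline and glycine with threonine. Without uveitis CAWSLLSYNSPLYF (20 cells, 3.88%, interval 2.38 to 5.92%) carried leucine and serine. It was followed by a TRBV3 sequence with glutamine and glycine (8 cells) and a TRBV20 sequence with glycine and serine (7 cells). The sequences of 46 and 20 cells share TRBV31 and its germline start CAWS, and both have leucine at position 6 or 7. The net charge of these 9 sequences was 0 or −1.
TRBV3 with TRBJ2-7, uveitis dataset 1, 16 cells: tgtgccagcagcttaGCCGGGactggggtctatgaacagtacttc
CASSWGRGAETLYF, uveitis dataset 1, 13 cells: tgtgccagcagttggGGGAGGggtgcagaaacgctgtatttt
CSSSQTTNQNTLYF, uveitis dataset 1, 11 cells: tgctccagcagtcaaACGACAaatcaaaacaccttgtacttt
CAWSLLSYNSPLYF, without uveitis, 20 cells: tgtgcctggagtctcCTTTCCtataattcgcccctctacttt
TRBV3 with TRBJ2-2, without uveitis, 8 cells: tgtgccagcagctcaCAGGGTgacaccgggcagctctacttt
TRBV20 with TRBJ2-2, without uveitis, 7 cells: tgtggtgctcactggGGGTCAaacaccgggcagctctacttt

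Near-identical CDR3β were more frequent within and between the uveitis datasets than with or within the dataset without uveitis. Per 10000 pairs of distinct amino acid sequences of the same length, 25.6 pairs differed at 1 residue within uveitis dataset 1 (4 of 1561), 61.6 within uveitis dataset 2 (10 of 1623) and 33.9 between them (11 of 3244). The rates were 8.50 within the dataset without uveitis (15 of 17639), 7.62 between it and uveitis dataset 1 and 10.1 between it and uveitis dataset 2. The counts are small, pairs share sequences, and no test was made. Of the 4, 10 and 15 pairs within a library, 1, 1 and 0 differed at a single base of the nucleotide sequence. The difference lay at positions 5 to 7 in 3, 8 and 12 of them. Among sequences found in 1 cell alone, the uveitis mean was 9.03 pairs per 10000 above the dataset without uveitis, against 35.1 among all sequences.

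**Figure D5:**
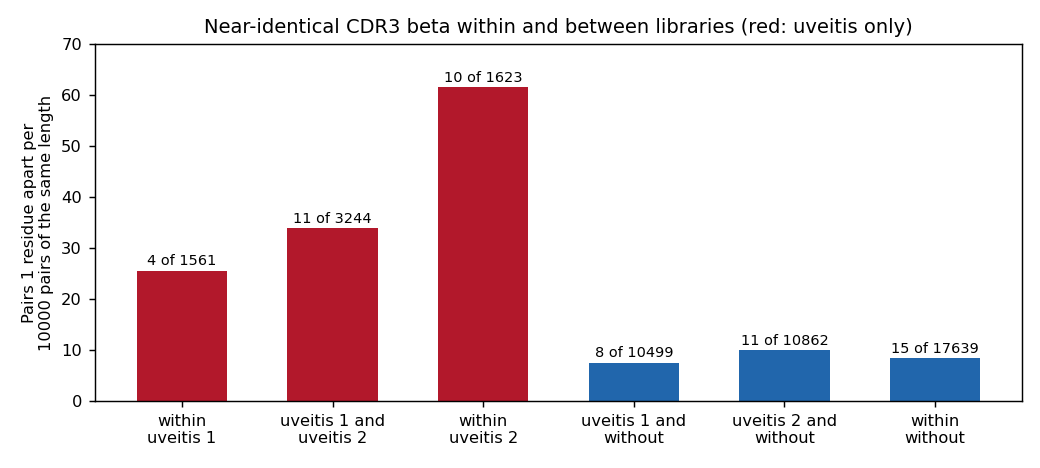
Number of CDR3β amino acid pairs that differ at 1 residue per 10000 pairs of the same length (y axis), within each library and between libraries (x axis), with the counts above the bars. The 3 comparisons among uveitis datasets lie between 25.6 and 61.6, and the 3 that involve the dataset without uveitis between 7.62 and 10.1.

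Linked by such pairs, the sequences formed 30 groups, 9 of them with 3 or 4 amino acid members. The group printed above held cells of the uveitis datasets alone, with glycine at position 6 and phenylalanine or tryptophan at position 7 before the germline NQDTQYF. It joined TRBV5 (chromosome 6, GRCm38, 41062332 to 41062803) and TRBV26 (41227505 to 41227993) to TRBJ2-5 (41543453 to 41543501). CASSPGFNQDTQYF was encoded by 3 nucleotide sequences, which differed in the inserted codons of positions 5 and 6. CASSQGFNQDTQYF was the 1 CDR3β with the same nucleotides in more than 1 library. The ending GFNQDTQYF was found once without uveitis, after TRBV5 in a sequence 1 residue longer, in 1 cell. The germline ending NQDTQYF as such was in 7 of 124, 8 of 139 and 12 of 429 sequences.

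Most cells of this group also had near-identical α chains. All 15 cells had a productive TRA, and in 13 of them it had the CDR3α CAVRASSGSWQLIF (8 cells) or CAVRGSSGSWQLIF (5 cells), which differ at position 5 and join TRAV9-1 or its duplicate TRAV9D-1 to TRAJ22. These are the CDR3α sequences that were in 2 or more cells of the group, and were chosen after its α chains were seen. Another 5 CDR3α were each in 1 cell, in some beside one of the 2 forms. The 2 forms were in 4 of the 6 cells of uveitis dataset 1 and in 9 of the 9 cells of uveitis dataset 2. Outside the group the forms were in 0 of 170, 0 of 315 and 0 of 470 cells with both chains, counts of 0 that allow shares of up to 1.76%, 0.952% and 0.638%. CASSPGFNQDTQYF and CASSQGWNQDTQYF were found with the alanine form (6 and 2 cells), and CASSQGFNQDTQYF and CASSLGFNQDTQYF with the glycine form (4 and 1 cells). The alanine form was encoded by the same nucleotides in both uveitis datasets in 5 cells.
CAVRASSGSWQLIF, 2 cells in uveitis dataset 1 and 3 cells in uveitis dataset 2: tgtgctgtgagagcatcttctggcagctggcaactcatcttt
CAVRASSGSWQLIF, 3 cells in uveitis dataset 2: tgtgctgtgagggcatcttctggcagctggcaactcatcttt
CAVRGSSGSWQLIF, 2 cells in uveitis dataset 1: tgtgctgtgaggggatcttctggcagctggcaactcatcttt
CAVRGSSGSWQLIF, 3 cells in uveitis dataset 2: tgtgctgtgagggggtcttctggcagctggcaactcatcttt

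A second group of 15 cells joined TRBV20 to TRBJ1-4 and was not limited to uveitis. Its members were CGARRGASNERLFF (3 cells in uveitis dataset 2 and 4 without uveitis), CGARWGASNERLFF (7 cells in uveitis dataset 2) and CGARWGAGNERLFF (1 cell without uveitis). All have glycine at position 6 and alanine at position 7, in both conditions. Its α chains were looked at after the values were seen. All 15 cells had a CDR3α ending in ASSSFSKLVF, joined to TRAJ50, which was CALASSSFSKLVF in the 7 cells with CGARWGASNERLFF, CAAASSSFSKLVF in the 7 cells with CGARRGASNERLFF and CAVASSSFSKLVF in 1 cell, each with another TRAV segment. The 4 cells with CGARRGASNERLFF without uveitis also held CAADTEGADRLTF. Outside the group this ending was in 2 of 176, 0 of 314 and 4 of 465 cells with both chains. Another group, of 11 residues, varied at positions 3 and 4, before the germline NTGQLYF of TRBJ2-2. Its inserts were 0 to 3 bases long, and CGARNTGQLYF in uveitis dataset 2 and without uveitis had none.
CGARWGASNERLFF, uveitis dataset 2, 7 cells: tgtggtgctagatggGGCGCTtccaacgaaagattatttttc
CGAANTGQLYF, uveitis dataset 2, 4 cells: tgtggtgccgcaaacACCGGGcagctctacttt
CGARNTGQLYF, uveitis dataset 2, 1 cell: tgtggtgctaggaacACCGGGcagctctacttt
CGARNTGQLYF, without uveitis, 1 cell: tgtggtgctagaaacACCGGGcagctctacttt

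Among the remaining groups of 3 or more, a TRBV13-2 group of 16 residues was in 4, 5 and 1 cells of the 3 libraries. A group ending in NTEVFF, the germline end of TRBJ1-1, was in 3 cells of uveitis dataset 1 and 9 of uveitis dataset 2, and held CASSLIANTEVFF (8 cells) with isoleucine at position 6. This group and the first one printed were the only ones of the 9 that had no cell without uveitis. The groups not described here were in 2, 0 and 3, in 0, 1 and 3, in 1, 0 and 2, and in 0, 3 and 1 cells of the 3 libraries. Over the libraries, 14 of 675 amino acid sequences were encoded by more than 1 nucleotide sequence, 0, 3 and 4 of them within a single library.
TRBV13-2 with TRBJ2-1, uveitis dataset 1, 3 cells: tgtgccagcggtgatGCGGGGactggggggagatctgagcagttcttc
TRBV13-2 with TRBJ2-1, uveitis dataset 2, 5 cells: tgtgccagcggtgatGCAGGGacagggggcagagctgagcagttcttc
TRBV13-2 with TRBJ2-1, without uveitis, 1 cell: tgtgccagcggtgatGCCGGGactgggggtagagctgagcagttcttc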

How the data were processed

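The deposited contig tables, 1 for each TCR library, list for each assembled contig its barcode, chain, V, D and J genes, CDR3 and the counts of reads and UMIs, which the authors made with Cell Ranger on GRCm38 (mm10) per the labels and did not normalise. They hold 3124 contigs, and all columns used were matched to a library. Distinct CDR3 nucleotide sequences of productive TRB contigs were counted within each library with Python 3.11.15 and pandas 2.3.3. Germline segments came from GENCODE vM21 transcripts (GRCm38), in which 21 V and 12 J segments of the files were matched by name. A D match needed at least 6 bases. Intervals are Clopper-Pearson (95%, scipy 1.17.1), and a count of 0 allows 3 counts. Expanded minus single was tested over the 3 libraries with the exact two-sided sign-flip permutation test. The uveitis datasets came from independent experiments per the study. Whether the library without uveitis was made beside either is not stated, so that its batch and condition cannot be told apart. The functions were tested on simulated contigs. Named sequences are the most frequent of each length class and library, those shared between libraries, those with hydrophobic residues at positions 6 and 7, the extremes of length and charge, and members of groups of near-identical sequences. The members, lists and rules were chosen with earlier results of these data known, and the groups and their α chains after their values were seen.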

Additional observations from a re-analysis of the deposited data

Results flagged for a closer look

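For a pair of measures, expanded sequences differed from single ones in one direction in both uveitis datasets and in the other direction without uveitis. The hydrophobic share at position 7 was higher by 0.385 and 1.38 points in uveitis datasets 1 and 2, and differed by −5.66 points without uveitis. Glycines per sequence were higher by 0.092 and 0.383, and differed by −0.00148 without uveitis. The difference between the conditions was not tested. The values for dataset 1 at position 7 and for glycine without uveitis lie close to 0.

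Non-productive TRB contigs, which the report does not use, held a cysteine after the first position in 2 of the 14 distinct CDR3 sequences without uveitis. It was in 0 of 5 and 0 of 2 in uveitis datasets 1 and 2, and in 0 of 692 productive sequences. Of the 21 non-productive sequences, 4 contained a stop codon.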

How the results depend on the processing

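The differences in length, charge, hydrophobic residues, glycine, cysteine and near-identical pairs, 15 results in all, were recomputed with another choice of contigs or cells, another hydrophobic set or definition, and with a library left out (either uveitis dataset, and any library for expanded minus single), which gave 197 alternatives. Of these, 179 were counted as unchanged, that is, in the same direction. For differences between conditions the move also lay within the SD of the uveitis datasets. The count includes 12 of 12 (expanded minus single) and 12 of 13 (between conditions) alternatives for cysteine. Its main value was 0, so that no direction could be lost, and −3.36 points for expanded minus single also counted. Between conditions at position 7 the SD of 5.79 points exceeded the difference of 4.96, so that 0.869 points without uveitis dataset 1 counted as unchanged. Choices about TRBV1, the other reading frame, position 6 or 7 together, near-identical pairs, single-cell sequences and cells without the pair of TRB found together in dataset 2 were added after the data were seen. Length classes, inserts, residue counts, CDR3α and the groups had no alternatives here. The uveitis mean minus the dataset without uveitis was as follows.

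Counted by cell, length differed by 0.610 residues, the hydrophobic share by 0.062 points at position 6 and by 6.69 points at position 6 or 7. Without the pair of TRB found together in dataset 2 these were 0.287 residues, 2.10 points and 10.8 points. Among sequences in 1 cell, length differed by 0.0286 residues, glycines by 0.185, the share at position 6 or 7 by 10.1 points and near-identical pairs by 9.03 per 10000. The share at position 6 or 7 differed by 10.7 points with only the contig of most UMIs per cell, 10.2 with cells that also had a TRA, 8.28 with alanine added to the set and 7.33 at the central residues, where position 7 gave −0.168. With TRBV1 counted from its earlier cysteine, the cysteine share differed by −0.677 points. The net charge went from −0.068 to 0.138 between leaving out uveitis dataset 2 and dataset 1.

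For expanded minus single, the share at position 7 was 3.70 points with alanine added and 2.06 at the central residues, in place of −1.30, and lay between −2.64 and 0.885 without 1 library. At position 6 the difference of 6.26 points was 2.76 with expansion set at 3 cells and 6.68 ± 12.9 at the central residues (both exact permutation p = 0.50). The share at position 6 or 7 was −0.836 points with expansion set at 3 cells, in place of 4.35. No permutation p could pass 0.05, since 3 libraries allow 0.25 and a pair 0.5. No paired analysis between the conditions was possible, because only the replicate number 1 links a uveitis dataset to the library without uveitis. Lengths, charges and shares rest on 124, 139 and 429 sequences, so that a share of a few percent is not resolved in the uveitis datasets. The causes of the changes were not tested.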
